A study of Rattus norvegicus with 8 samples.

Results

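The genes of the renin-angiotensin system were examined in slices of kidney cortex from male and female rats. The members were 8 genes, chosen by name, namely Agt, Ace, Mme, Enpep, Agtr1a, Agtr1b, Agtr2 and Mas1. A probe was taken as that of a member when its RefSeq accession belonged to that rat gene, which gave 9 of the 30367 probes of the array, or 8 of the 14737 genes that could be named. Ace had 2 probes and every other member had 1, and a gene with 2 probes was led by the brighter one. The slices came from untreated adult RCCHanTMWIST rats, 4 of each sex, which shared strain, housing and chow. RNA of 1 slice from each rat was labelled with Cy3 and hybridized to 1 one-colour array. A slice of cortex holds proximal tubules, distal segments, glomeruli and vessels together, so a level is an average over these cells.

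The renin-angiotensin system raises blood pressure and keeps salt. Angiotensinogen, the product of Agt, is the precursor of angiotensin I, which angiotensin-converting enzyme (Ace) turns into angiotensin II. Aminopeptidase A (Enpep) and neprilysin (Mme), which stand on the brush border of the proximal tubule and on podocytes, break down or convert angiotensin peptides. Angiotensin II acts mainly through the type 1 receptor, for which rats have a pair of genes, Agtr1a and Agtr1b. Agtr2 codes for the type 2 receptor, and Mas1 for a receptor of a shorter angiotensin peptide. The proximal tubule makes angiotensinogen of its own, and the kidney therefore has a local system beside the circulating one.

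The signal of a spot, from which the scanner software had subtracted the background, was expressed as log2 relative to the 75th percentile of its array, taken over non-control spots. That percentile lay between 5025 and 6547 on the 8 arrays, between 73.8% and 79.1% of probes passed the software's test of being well above background, while saturated spots were absent. Males were compared with females by limma over the 23425 probes that passed this test on 4 arrays or more, with Benjamini-Hochberg adjustment over all of them. A probe was called at an adjusted p below 0.05. The 8 arrays shared 1 slide, each of its 2 rows holding 2 females and 2 males. The number of arrays limits the precision. Proximal tubule markers (6 of 6) and podocyte markers (5 of 5) were well above background on every array, as the tissue label requires, while of the inner medullary markers the urea transporter Slc14a2 was so on none and the water channel Aqp4 on all 8. Of 6 adrenal markers, Cyp11a1 and Cyp21a1 were well above background on all 8 arrays, Cyp11b2 on 2, Mc2r on 1, and Star and Cyp11b1 on none.

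Of the 8 members, 7 were well above background on every array and were tested. Agt and Enpep were called, both higher in males, against 8.06% of all tested probes called in either direction, 3.39% being higher in males and 4.67% higher in females. Agt also reached an absolute log2 fold-change of 1, which 1.89% of the tested probes did together with the adjusted p. At an unadjusted p below 0.05 there were 5 members, against 25.6% of the tested probes. The ranges of males and females did not overlap for 2 members, against 18.5% of the tested probes. The median log2 fold-change (male minus female) was 0.24 over the 7 tested members and −0.045 over all tested probes. With 7 genes, no share of the members was read against these percentages. Agtr2, the remaining member, was well above background on no array.

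**Figure D1:**
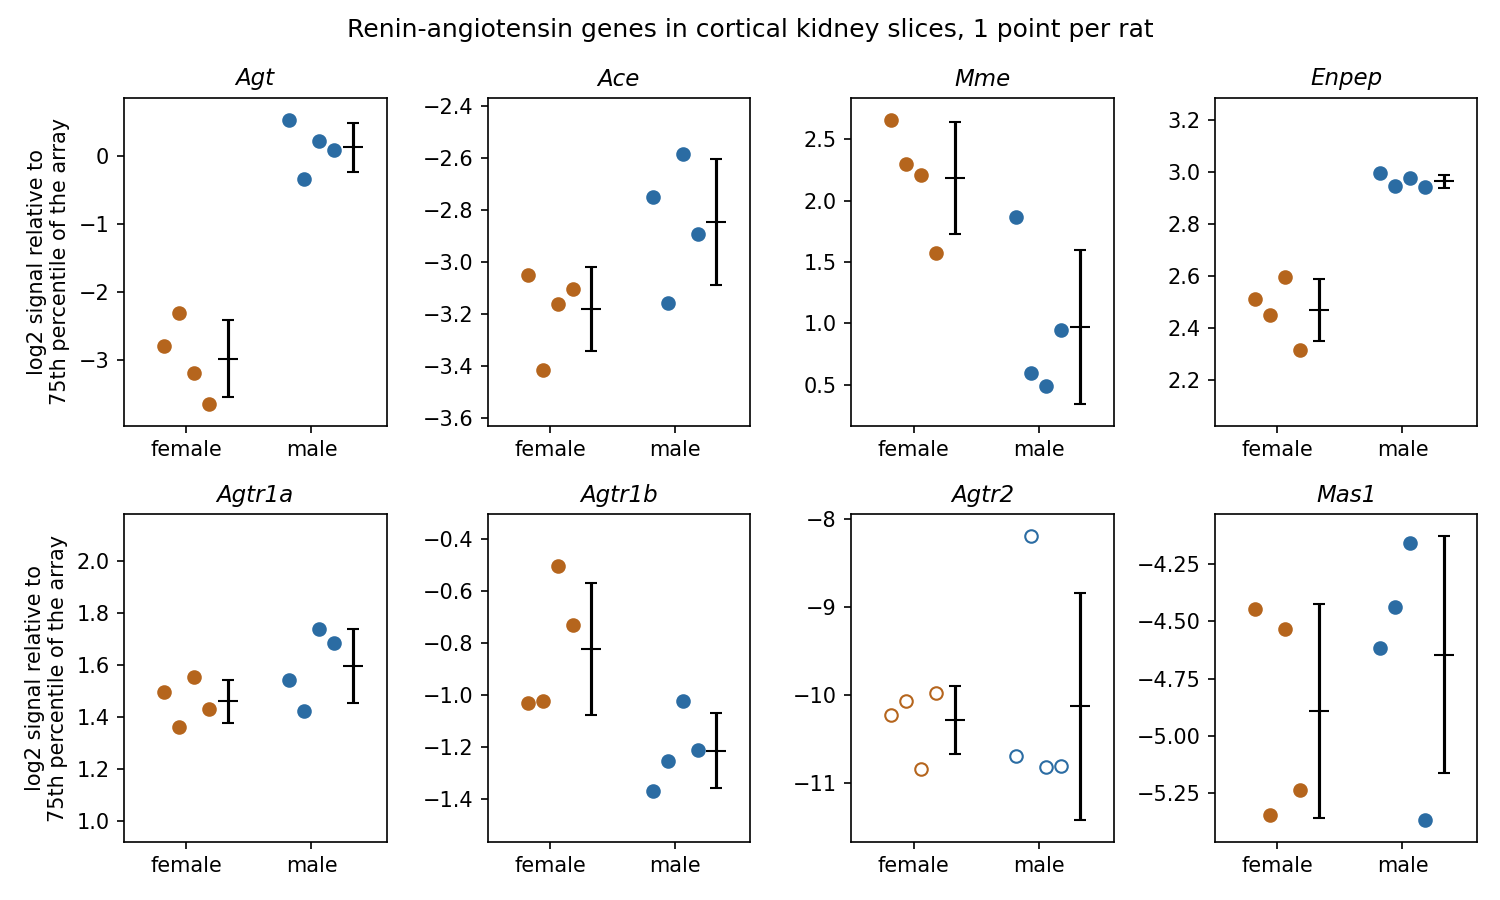
Log2 signal of the leading probe of each member relative to the 75th percentile of its array (y axis, a different range in each panel), with 1 point per rat, replicates 1 to 4 from left to right, and the mean ± SD of 4 rats beside them. Open points mark a probe not well above background. The 4 males lie above the 4 females for Agt and Enpep, while the ranges overlap for the other members.

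Agt, which codes for the precursor of all angiotensin peptides, had the largest difference among the members. On the log2 scale just described it had −2.79, −2.32, −3.20 and −3.65 in female replicates 1 to 4. It had 0.53, −0.33, 0.22 and 0.096 in male replicates 1 to 4. In processed signal, the females lay between 474 and 1007 and the males between 4514 and 9459, so that the lowest male was far above the highest female. Females averaged −2.99 ± 0.57 and males 0.13 ± 0.36 (SD, n = 4 each). The log2 fold-change (male minus female) was 3.12 (standard error, SE, 0.29, adjusted p = 0.00101 from limma), or 8.69-fold. The 95% confidence interval reached from 2.45 to 3.78, and the difference was larger in size than that of 99.7% of the tested probes. A two-sided exact permutation test gave p = 0.0286, the smallest that 4 rats against 4 allow. In such bulk samples, fewer cells that make a transcript and less of it per cell cannot be told apart.

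The females also differed among themselves in Agt, with a range from −3.65 in replicate 4 to −2.32 in replicate 2. Within the first row of the slide the log2 fold-change was 3.74 and within the second 2.50 (2 rats of each sex in each row, no test). With the row as a block, the adjusted p of limma was 0.00238. Angiotensinogen is made mainly by the liver and also by fat, and markers of these tissues were therefore examined. Of 5 liver markers, 4 were tested and 2 were called, against 8.06% of all tested probes. Both went in the opposite direction, with log2 fold-changes of −1.35 for Fgb and −5.53 for Ttr. The probe of Ttr was well above background on 6 arrays. Apoa1 was well above background on no array, while Alb had 0.53 (adjusted p = 0.704) and Serpina1 0.22 (adjusted p = 0.442). The summed level of the liver markers, relative to the 75th percentile, was 0.489 to 0.938 in females and 0.138 to 0.185 in males. This sum mainly repeats the values of Fgb and Ttr, whose female means were −1.46 and −1.94 on the log2 scale. The female means of Alb, Serpina1 and Apoa1 were −7.03, −7.89 and −9.01. None of 4 tested adipose markers was called, and 1 had an unadjusted p below 0.05, against 25.6% of all tested probes. The summed level of the adipose markers was 0.335 to 0.978 in females and 0.323 to 0.471 in males. The part of liver and fat in the values of Agt was not tested.

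Ace codes for the enzyme that makes angiotensin II and is known in kidney from the brush border and the endothelium. At its brighter probe (A_64_P098230), the females had −3.05, −3.41, −3.16 and −3.10, and the males −2.75, −3.16, −2.58 and −2.89. Male replicate 2 lay among the females and the other males lay above all of them. Females averaged −3.18 ± 0.16 and males −2.84 ± 0.24 (SD, n = 4 each). The log2 fold-change of 0.34 (SE 0.135) did not pass the adjusted p of limma, which was 0.166. Its 95% confidence interval was 0.026 to 0.65. The dimmer probe (A_64_P010531) had a log2 fold-change of 0.099 (SE 0.24, adjusted p = 0.838), with an interval from −0.45 to 0.65. At that probe, female replicate 2 and male replicate 2 were the lowest of their sex, with −5.04 and −5.19, as they were at the brighter one. None of the 5 endothelial markers was called or had an unadjusted p below 0.05, and their median log2 fold-change was −0.11.

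Enpep, which removes the first amino acid of angiotensin II, was higher in males at a small fold. The females had 2.51, 2.45, 2.60 and 2.31, and the males 2.99, 2.94, 2.98 and 2.94. The males stood closer together than the rats of any other group of a member, with an SD of 0.025. Females averaged 2.47 ± 0.12 and males 2.96 ± 0.025 (SD, n = 4 each). The log2 fold-change was 0.50 (SE 0.075, adjusted p = 0.00725 from limma), or 1.41-fold, with a 95% confidence interval from 0.33 to 0.67. No female reached the lowest male, and without overlap the exact permutation test can only give p = 0.0286. The ranges of the sexes did not overlap for 18.5% of all tested probes. The difference was 0.51 within the first row of the slide and 0.48 within the second.

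Mme had the largest difference in the other direction and did not pass the adjusted p. The females had 2.66, 2.30, 2.21 and 1.57, and the males 1.87, 0.59, 0.49 and 0.94. Male replicate 1 stood above female replicate 4, and the other 3 males lay below all females. Females averaged 2.18 ± 0.45 and males 0.97 ± 0.63 (SD, n = 4 each). The log2 fold-change was −1.21 (SE 0.333, adjusted p = 0.0634 from limma), which is 2.32-fold with a 95% confidence interval of the log2 value from −1.98 to −0.45. The exact permutation test gave p = 0.0571. Without male replicate 1 the log2 fold-change was −1.51 (adjusted p = 0.0196 from limma), and without female replicate 4 it was −1.42 (adjusted p = 0.0466). These are the rats at which the sexes overlapped, so leaving either out widens the difference. With any other array left out it was −1.20 to −1.05 (adjusted p 0.124 to 0.145 from limma), and Mme was not called. Within the first row of the slide, which held male replicate 1 and female replicate 4, the log2 fold-change was −0.49, and within the second −1.94. With the row as a block, the adjusted p was 0.0834.

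Because Mme and Enpep both stand on the brush border and on podocytes, markers of these cells are given beside them. Of 6 proximal tubule markers, 1 was called, against 8.06% of all tested probes. Their median log2 fold-change was −0.044, and their summed level was 148 to 159 in females and 150 to 153 in males. Cubn, the endocytic receptor cubilin, was the called one, with −0.59 (adjusted p = 0.00452). An unadjusted p below 0.05 was found for 3 of these markers, against 25.6% of all tested probes. In the other direction, Gatm had 0.33 (adjusted p = 0.0706 from limma) and Slc5a12 0.25 (adjusted p = 0.104). Slc5a2 had −0.13, Slc34a1 −0.080 and Lrp2 −0.0082. Of 5 markers of proximal tubule segment 3, Slc1a1 was called, with 0.65 (adjusted p = 0.0238), and Slc7a13 had −0.90 (adjusted p = 0.0639). The summed level of the segment 3 markers was 66.8 to 101 in females and 63.2 to 71.1 in males. Of the podocyte markers, 1 was called, namely Podxl with −0.27 (adjusted p = 0.0354), and their summed level was 12.2 to 13.0 in females and 10.5 to 11.01 in males. The part of these cells in the values of Mme and Enpep was not tested.

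The promoters of Enpep and Mme are shown because these members had the clearest differences among those with a promoter sequence. RefSeq (build GRCr8) gave a window of 250 bases before to 50 after the start site for 7 of the 8 members, all but Agt. The bases before the start site are printed 5′ to 3′, from chr2:220526219-220526468 on the minus strand for Enpep and from chr2:149872247-149872496 on the plus strand for Mme. Capitals mark a match to one of 5 motifs that were searched on both strands.
Enpep: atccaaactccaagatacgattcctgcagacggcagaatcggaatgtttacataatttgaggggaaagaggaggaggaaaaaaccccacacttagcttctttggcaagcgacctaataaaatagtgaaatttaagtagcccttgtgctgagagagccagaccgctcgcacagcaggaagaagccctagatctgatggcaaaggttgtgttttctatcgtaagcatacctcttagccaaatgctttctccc
Mme: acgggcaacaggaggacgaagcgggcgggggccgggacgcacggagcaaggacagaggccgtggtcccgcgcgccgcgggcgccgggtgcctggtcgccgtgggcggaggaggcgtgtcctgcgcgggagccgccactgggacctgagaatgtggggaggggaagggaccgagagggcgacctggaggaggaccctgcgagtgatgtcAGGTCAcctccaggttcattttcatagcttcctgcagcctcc
The motifs were the androgen response element half-site AGAACA, the estrogen response element half-site AGGTCA and the TATA box TATAAA. The others were the STAT5 core TTCNNNGAA and the BCL6 consensus, searched as TTCCTAGAA or TTCCTCGAA. The BCL6 letters are a special case of the STAT5 letters, so every BCL6 match is also counted as a STAT5 match. The window of Enpep held none of the 5, and that of Mme held AGGTCA, beginning 42 bases before the start site. Of all 33469 windows, 20.7% held AGAACA, 16.2% AGGTCA, 14.2% TATAAA, 8.87% TTCNNNGAA and 0.442% the BCL6 letters. Of the 7 windows of members, AGAACA, TTCNNNGAA and the BCL6 letters were found in 0, and AGGTCA and TATAAA in 2 each. These matches are letters in a window and were not measured as binding.

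The genes of the type 1 receptor stood in opposite directions and neither was called. Agtr1a, the main type 1 receptor gene of rat kidney, had 1.5, 1.36, 1.55 and 1.43 in females and 1.54, 1.42, 1.74 and 1.68 in males. The ranges overlapped, and the log2 fold-change was 0.14 (SE 0.089, adjusted p = 0.377 from limma), with a 95% confidence interval from −0.066 to 0.34. Its probe lay on 10 spots of each array. Agtr1b had −1.03, −1.02, −0.50 and −0.73 in females and −1.37, −1.25, −1.02 and −1.21 in males. Male replicate 3 stood just above female replicate 1, and the other males lay below all females. The log2 fold-change of Agtr1b was −0.39 (SE 0.135, adjusted p = 0.117 from limma), with an interval from −0.70 to −0.081 (exact permutation test, p = 0.0571). Within the slide rows it was −0.67 and −0.11.

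Agtr1a and Agtr1b code for nearly identical proteins, and the sequences of the probes are not used here, so signal of one gene at the probe of the other was not tested. Agtr1b is best known from the adrenal gland, and of its markers Cyp11a1 and Cyp21a1 were tested, with −0.21 (adjusted p = 0.609) and −0.43 (adjusted p = 0.21). Neither was called or had an unadjusted p below 0.05, and the summed level of the adrenal markers was 0.107 to 0.184 in females and 0.0898 to 0.121 in males. The promoters of this pair are shown to set the paralogs side by side, from chr17:34435433-34435682 for Agtr1a and from chr2:104849263-104849512 for Agtr1b, both on the minus strand, with capitals as above.
Agtr1a: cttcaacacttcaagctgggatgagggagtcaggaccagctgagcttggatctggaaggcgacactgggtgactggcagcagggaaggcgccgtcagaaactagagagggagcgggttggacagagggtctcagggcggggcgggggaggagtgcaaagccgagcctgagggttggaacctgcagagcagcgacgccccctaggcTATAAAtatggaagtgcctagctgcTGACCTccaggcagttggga
Agtr1b: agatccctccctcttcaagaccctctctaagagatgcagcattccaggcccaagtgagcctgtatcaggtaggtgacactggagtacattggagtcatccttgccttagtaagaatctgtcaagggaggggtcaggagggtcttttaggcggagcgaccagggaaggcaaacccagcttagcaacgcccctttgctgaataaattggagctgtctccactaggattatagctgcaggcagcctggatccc
The window of Agtr1a held TATAAA, beginning 45 bases before the start site, and AGGTCA on the other strand, beginning 20 bases before it. That of Agtr1b held none of the 5 motifs.

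The other receptors were dim. Mas1 was well above background on every array, with −4.45, −5.34, −4.53 and −5.24 in females and −4.62, −4.44, −4.16 and −5.37 in males. The ranges covered each other, and the log2 fold-change was 0.24 (SE 0.3, adjusted p = 0.657 from limma). Its interval from −0.44 to 0.93 leaves room for a difference of either sign. It was −0.11 in the first row of the slide and 0.60 in the second. For Agtr2, the processed signal was 3.06 to 6.83 in the females and 3.57, 3.61 and 3.97 in male replicates 3, 4 and 1. Male replicate 2 had 43.1, and the probe counted there as not well above background because 1 of its 2 spots was not. No fold is given for Agtr2, since it was below that limit in both sexes.

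**Figure D2:**
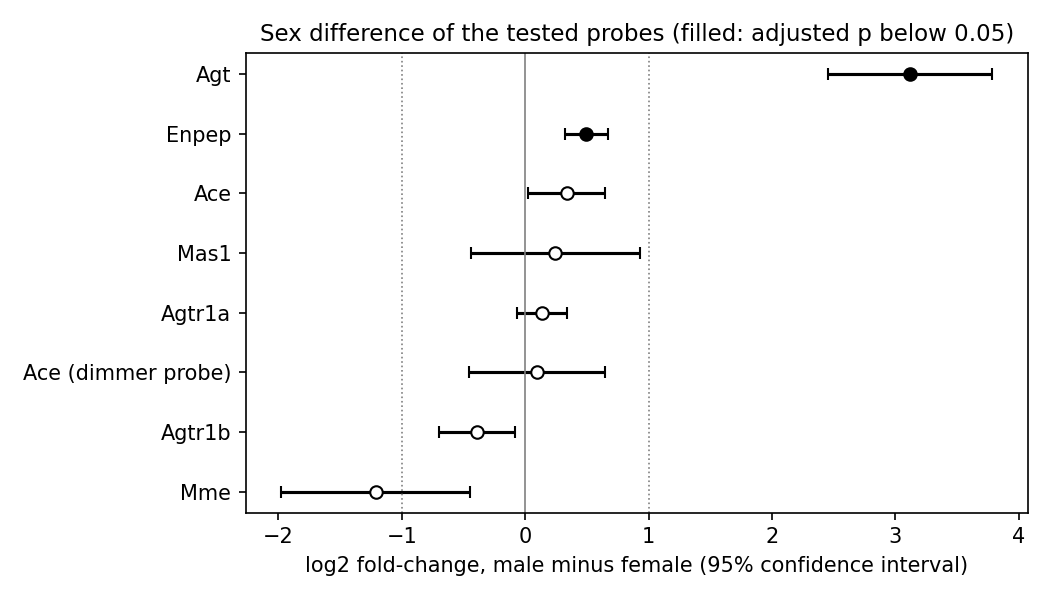
Log2 fold-change (male minus female, x axis) of the 8 tested probes of 7 members with the 95% confidence interval from limma. Filled points have an adjusted p below 0.05, and dotted lines mark a log2 fold-change of 1 in either direction. Agt at 3.12 and Enpep at 0.50 are filled, and Mme at −1.21 lies beyond the dotted line without being called.

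Other enzymes, substrates and receptors of angiotensin and bradykinin peptides were described as a list of 22 genes. On the array 20 had a named probe, and 16 were tested. Of these, 1 was called, higher in males, and 4 had an unadjusted p below 0.05, against 8.06% and 25.6% of all tested probes, and the median log2 fold-change was −0.060. The called gene was Prep, prolyl endopeptidase, which can cut angiotensin peptides behind a proline. Prep had 0.82, 0.87, 0.49 and 0.39 in females and 1.47, 1.03, 1.47 and 1.42 in males, without overlap. Its log2 fold-change was 0.71 (SE 0.146, adjusted p = 0.0251 from limma), or 1.63-fold. The call was lost when female replicate 3 (adjusted p = 0.0669), female replicate 4 (0.05002), male replicate 1 (0.0621), male replicate 3 (0.065) or male replicate 4 (0.0637) was left out. It was also lost with the replicate number as a block, at 0.0803.

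Of the other genes of this list, a pair is named with their values known, and neither was called. Nln, the peptidase neurolysin, had 0.28 (adjusted p = 0.0517), and each male lay above each female. With quantile normalization Nln had 0.31 (adjusted p = 0.0296). Of 17 alternative settings Nln was called at 4, and its adjusted p from limma reached 0.124 at the others. Klk1, tissue kallikrein, had −0.26 (adjusted p = 0.1), and each male lay below each female. Over all tested probes, the ranges of the sexes did not overlap for 18.5%. With quantile normalization Klk1 had −0.15 (adjusted p = 0.337), and with the log2 values of the authors −0.18 (adjusted p = 0.259).

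Among 9 genes that act with the angiotensin receptors, 8 were tested and 1 was called, against 8.06% of all tested probes. At an unadjusted p below 0.05 there were 2, against 25.6%. The called one was Agtrap, whose product binds the type 1 receptor and promotes its internalization. Agtrap had 2.04, 1.97, 1.88 and 2.04 in females and 2.57, 2.41, 2.49 and 2.42 in males. The males lay apart from the females, and the log2 fold-change was 0.49 (SE 0.0705, adjusted p = 0.0061 from limma), or 1.40-fold. The median of the list was −0.014. Of 9 genes of the renal aldosterone response, 7 were tested and none was called by limma, while 2 had an unadjusted p below 0.05, against 25.6% of all tested probes. Their median log2 fold-change was −0.19. Hsd11b2, which protects the mineralocorticoid receptor from corticosterone, had −0.24 (adjusted p = 0.0551), and each male lay below each female. With quantile normalization Hsd11b2 had −0.12 (adjusted p = 0.351), with the log2 values of the authors −0.14 (adjusted p = 0.295), and with an intensity trend and robust prior its adjusted p was 0.0194. The aldosterone-induced kinase gene Sgk1 had 0.68 (adjusted p = 0.299), with females from −0.034 to 1.71 and males from 1.32 to 1.62. Tsc22d3, a corticosteroid-induced gene, had −0.41 (adjusted p = 0.102). Of 17 alternative settings it was called at 1, without female replicate 3, with −0.54 (adjusted p = 0.0239). Its adjusted p from limma reached 0.22 at the others.

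**Figure D3:**
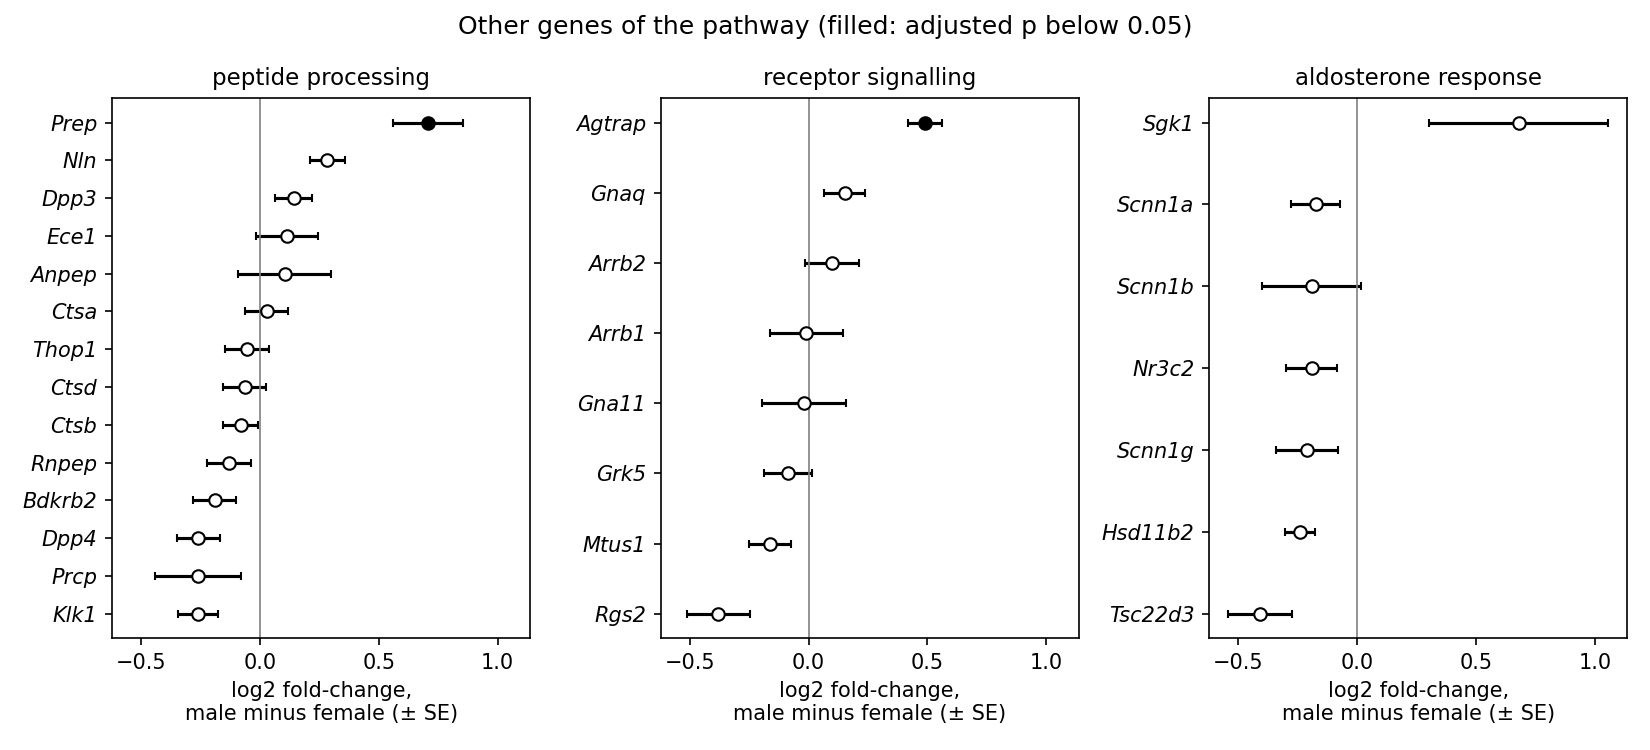
Log2 fold-change (male minus female, x axis) ± standard error of tested genes of 3 lists, namely 14 of the 16 genes of peptide processing, all 8 of receptor signalling and all 7 of the aldosterone response. Filled points have an adjusted p below 0.05 and are those of Prep at 0.71 and Agtrap at 0.49.

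The genes whose pattern over the 8 arrays was most like that of the called members were sought among 11138 other named genes well above background on every array. Likeness was the Pearson correlation of the log2 signals, given as a description, since the sexes form separate clusters and a difference between them alone gives a high value. For Agt the nearest were Ptgds, Apoc3 and Reep6, with r = 0.986, 0.985 and 0.984. Their log2 fold-changes were 2.16, 0.82 and 1.21. For Enpep the nearest were Dhrs7l1, Tex36 and Slc6a4, with r = 0.989, 0.987 and 0.983, and log2 fold-changes of 7.32, 0.78 and 0.99.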

How the data were processed

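The members and gene lists were chosen with earlier results of these data known. Feature Extraction 10.7.3.1 gave the authors the signal intensity of each spot, background-subtracted and spatially detrended without normalization between arrays (per the file headers). The authors also deposited log2 values of these signals with 1 distribution on all arrays. The labels name limma 3.8.2 without its role.

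Here, of the 58717 non-control spots of an array, spots with a non-uniformity or population outlier flag were dropped, the 75th percentile was subtracted on the log2 scale, and replicate spots of 1 probe were combined as their mean. A probe counted as well above background where most of its spots were. Probes were fitted with limma 3.58.1 (lmFit, eBayes; R 4.3.3), as males minus females with no covariate, with p adjusted by Benjamini-Hochberg over 23425 probes. It was tested on simulated data for 23425 probes, of which 200 were changed by 2 on the log2 scale, and it recovered 95% of them with 6 false calls. That share does not apply to smaller changes, such as those of all tested members but Agt. Single probes had an exact permutation test over 70 assignments.

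Accessions were named through RefSeq, and promoter sequences are those of RefSeq on GRCr8. The array design is of the older build rn4, so no coordinates of probes are given. Named were all members, the genes of 3 lists with an adjusted p below 0.05 or, in a list without any, up to 3 with the largest change, and the 3 genes most like each called member. Nln and Klk1 were added after their values were seen. Some genes of the lists are counted but not reported here by name. Marker lists were those of proximal tubule, its segment 3, podocytes, endothelium, mesangial and smooth muscle cells, adrenal gland, fat, liver, blood and inner medulla. Alternatives were quantile normalization, the log2 values of the authors, normexp (offset 50, median spot signal), the filter on dim probes, the outlier spots, the prior, the replicate number or slide row as a block, the dimmer probe and each array left out.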

Additional observations from a re-analysis of the deposited data

Results flagged for a closer look

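One value of Agtr2 stood apart within its sex. At the 9 probes of the members, the gap between an extreme rat and its nearest neighbour was divided by the range of the 4 rats (Dixon's criterion), separately for males and females. Of 18 such groups 1 exceeded the critical value, and about 1 in 20, or 0.9, would do so by chance. Male replicate 2 had a log2 signal of Agtr2 of −8.20 against the 75th percentile, and the remaining 3 males had −10.8 to −10.7. The probe was not well above background on any of these arrays. In male replicate 2, 1 of its 2 spots was not, so the value that stood apart rests mainly on the other spot.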

How the results depend on the processing

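Over 17 alternative settings, the log2 fold-change (male minus female) of Agt lay between 2.90 and 3.34 (adjusted p from limma 0.000193 to 0.0151) and that of Enpep between 0.45 and 0.54 (0.00165 to 0.0335), and both were called in each. Ace, Agtr1a, Agtr1b and Mas1 kept their direction and were called in none. Mme was called with normexp background correction, at −1.22 (adjusted p = 0.038), so that 2 members then reached both thresholds, and with 1 array left out its value lay between −1.51 and −1.05, with 1 to 2 members reaching both thresholds. Its adjusted p over all settings was 0.0196 to 0.145. The cause was not tested.

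In the pathway list, 2 genes were called with quantile normalization, with the log2 values of the authors, with a filter on all 8 arrays and with an intensity trend and robust prior, 0 with the replicate number as a block, and 0 to 1 with 1 array left out. Among all tested probes, 1889 were called. Without a filter on dim probes there were 1195 (more probes were tested), with the replicate block 1030 and with 1 array left out 1012 to 1544. Of the called probes, 42.1% were higher in males, against 56.3% with quantile normalization and 54.6% with the log2 values of the authors. The deviations of same-numbered rats from the mean of their sex had correlations of 0.019 to 0.138, and those of different numbers −0.222 to 0.117. Not every rat correlated best with its own number. With the replicate number as a block, the SE was 0.229 for Mme, 0.081 for Agtr1b and 0.088 for Ace, against 0.333, 0.135 and 0.135 without it. For Agt the SE was 0.299 with the block, against 0.290. Whether the numbers pair the rats was not tested. The block changed no call among the members. Agtr2 was too dim to be tested at any setting with a filter.

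As other markers, 0 of 5 mesangial and smooth muscle genes and 0 of 3 tested blood genes were called by limma. In each list 1 had an unadjusted p below 0.05, against 25.6% of all tested probes. Aqp4 of the inner medullary list had −1.19 (adjusted p = 0.0235 from limma).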
